A study of Mus musculus with 2 samples.

Results

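The interferon response and class I antigen presentation were read from 35 genes of the newborn mouse kidney, chosen by name from the 55488 gene rows of the count tables. Of these, 25 are antiviral genes and 10 belong to antigen presentation, and all 35 symbols were found in both libraries. The libraries are single-cell libraries of kidneys taken at postnatal day 0, although the tissue label calls the kidney embryonic. The library titled WT comes from Six2Cre mice heterozygous for a floxed folliculin allele (Six2Cre; Flcn flox/+), and the library titled KO from Six2Cre mice homozygous for it (Six2Cre; Flcn flox/flox). Both therefore carry the Cre driver, whose promoter is active in the cap mesenchyme that forms the nephron from podocyte to distal tubule, while ureteric bud, vessels and immune cells come from other lineages. Folliculin is a lysosomal regulator of mTORC1 signalling that restrains the transcription factors TFEB and TFE3. The labels do not give how many animals went into a library, and there is 1 library per group, so the differences below could not be set against the spread between animals, and no p-value is given.

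Interferons are secreted proteins that act through receptors and JAK kinases on transcription factors such as STAT2 and IRF9, which switch on genes carrying the interferon-stimulated response element, ISRE, or the gamma-activated sequence, GAS. The products block viral entry, translation and RNA, and several of them, such as the RNA sensors and Irf7, feed back on interferon production itself. Class I presentation shows peptides cut by the proteasome, carried into the endoplasmic reticulum by TAP and loaded with tapasin onto H2-K1 or H2-D1 paired with B2m, and interferon raises many of these genes in most tissues. In the kidney, endothelium and macrophages are known for high resting levels of such genes, and tubule epithelium is known to raise them on injury.

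The sequences upstream of 6 members are shown, 5 of them because they hold the letters of a response element and Irf7 for contrast. Each is the 150 bases before the annotated gene start, 5′ to 3′ on the gene's own strand, from RefSeq on GRCm38.p6. Capitals mark the letters of an ISRE core (GAAA, any 2 bases, GAAA) or a GAS (TTCNNNGAA), searched on both strands.
Isg15 (chr4:156200819-156200968, minus strand): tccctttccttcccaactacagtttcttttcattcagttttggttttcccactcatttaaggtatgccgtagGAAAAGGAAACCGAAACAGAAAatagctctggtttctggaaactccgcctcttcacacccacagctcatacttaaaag
Bst2 (chr8:71537473-71537622, minus strand): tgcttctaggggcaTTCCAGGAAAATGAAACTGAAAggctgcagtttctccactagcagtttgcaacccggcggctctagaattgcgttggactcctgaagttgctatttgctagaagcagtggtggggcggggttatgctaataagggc
Rsad2 (chr12:26456453-26456602, minus strand): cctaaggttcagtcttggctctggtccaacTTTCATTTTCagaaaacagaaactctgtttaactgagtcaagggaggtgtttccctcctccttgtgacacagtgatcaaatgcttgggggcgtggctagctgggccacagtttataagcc
Ifitm2 (chr7:140955962-140956111, minus strand): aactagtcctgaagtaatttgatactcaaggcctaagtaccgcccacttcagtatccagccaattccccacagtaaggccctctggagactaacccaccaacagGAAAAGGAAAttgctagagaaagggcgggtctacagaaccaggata
Irf7 (chr7:141266425-141266574, minus strand): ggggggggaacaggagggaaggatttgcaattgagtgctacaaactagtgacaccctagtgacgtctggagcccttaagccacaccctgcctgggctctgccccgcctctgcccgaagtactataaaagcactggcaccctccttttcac
B2m (chr2:122147537-122147686, plus strand): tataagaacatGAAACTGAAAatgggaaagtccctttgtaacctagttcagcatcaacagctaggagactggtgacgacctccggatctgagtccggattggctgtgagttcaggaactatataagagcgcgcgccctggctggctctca
Isg15 holds 3 overlapping copies of the ISRE letters, Bst2 holds 2, of which the one farther from the start overlaps a GAS, and Rsad2 holds 1 on the opposite strand. Ifitm2 holds 1 copy close to its start, B2m holds 1 far from it, and the Irf7 window holds neither pattern. Windows of 250 bases before to 50 after the start were found for 28 of the 35 members. The ISRE letters were in 12 of 20 antiviral windows (60.0%) and in 1 of 8 antigen presentation windows (12.5%, B2m), against 3.99% of the 27025 genes in the table. GAS letters were in 7 of 28 member windows (25.0%, against 9.55% of all genes), and the letters TCACGTG, the core bound by TFEB and its relatives, were in 0 of 28 (against 4.29%). A match is a description of letters, not a bound site, and a missing match says nothing of the factor.

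The deposited barcodes numbered 5572 in the WT and 5991 in the KO library, with 147390790 and 149679281 UMIs (unique molecules counted per gene). After filters and removal of predicted doublets, 4000 WT and 4798 KO cells remained, at median depths of 20960 and 18458 UMIs. The libraries shared 5 deposited barcodes and 1 kept barcode. Clusters were named from marker genes as "like" a cell type, and 367 WT and 266 KO cells stayed unnamed. Each class had at least 10 UMIs of nearly all of its own markers in both libraries, with 1 distal tubule marker short of that. Levels are CPM, a gene's UMIs summed over the cells of a class and divided by the nuclear-encoded UMIs of that class, on the usual CPM scale, and intervals are exact 95% intervals that cover counting error only. Flcn itself was at 23.1 CPM in WT and 12.3 in KO proximal tubule-like cells, a ratio of 0.531, and its KO over WT ratio lay between 0.622 and 1.73 in the other classes compared. Counts from the 3′ end of a transcript need not see a deletion of internal exons, so this does not check the genotype.

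In proximal tubule-like cells (370 WT, 296 KO), most of the antiviral and antigen presentation genes were higher in the KO library. Of the 25 antiviral genes, 20 had at least 20 UMIs over both libraries, and 16 of these were at least 1.5-fold higher and none 1.5-fold lower. Of the 10 antigen presentation genes 8 had that many, and 7 were at least 1.5-fold higher. Among all 15649 genes with that many UMIs in the class, 14.6% were at least 1.5-fold higher and 13.2% lower. The median log2 ratio was 1.47 over the measured antiviral genes and 1.77 over the measured antigen presentation genes, against 0.02 over all genes. The 7 members under 20 UMIs were Ifit1, Oas1a, Oas2, Usp18, Gbp2, Psmb9 and Nlrc5. The KO cells were deeper (median 50503 UMIs against 42705.5) with a lower mitochondrial share (6.76% against 8.13%), and the part of either in these ratios was not tested.

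**Figure D1:**
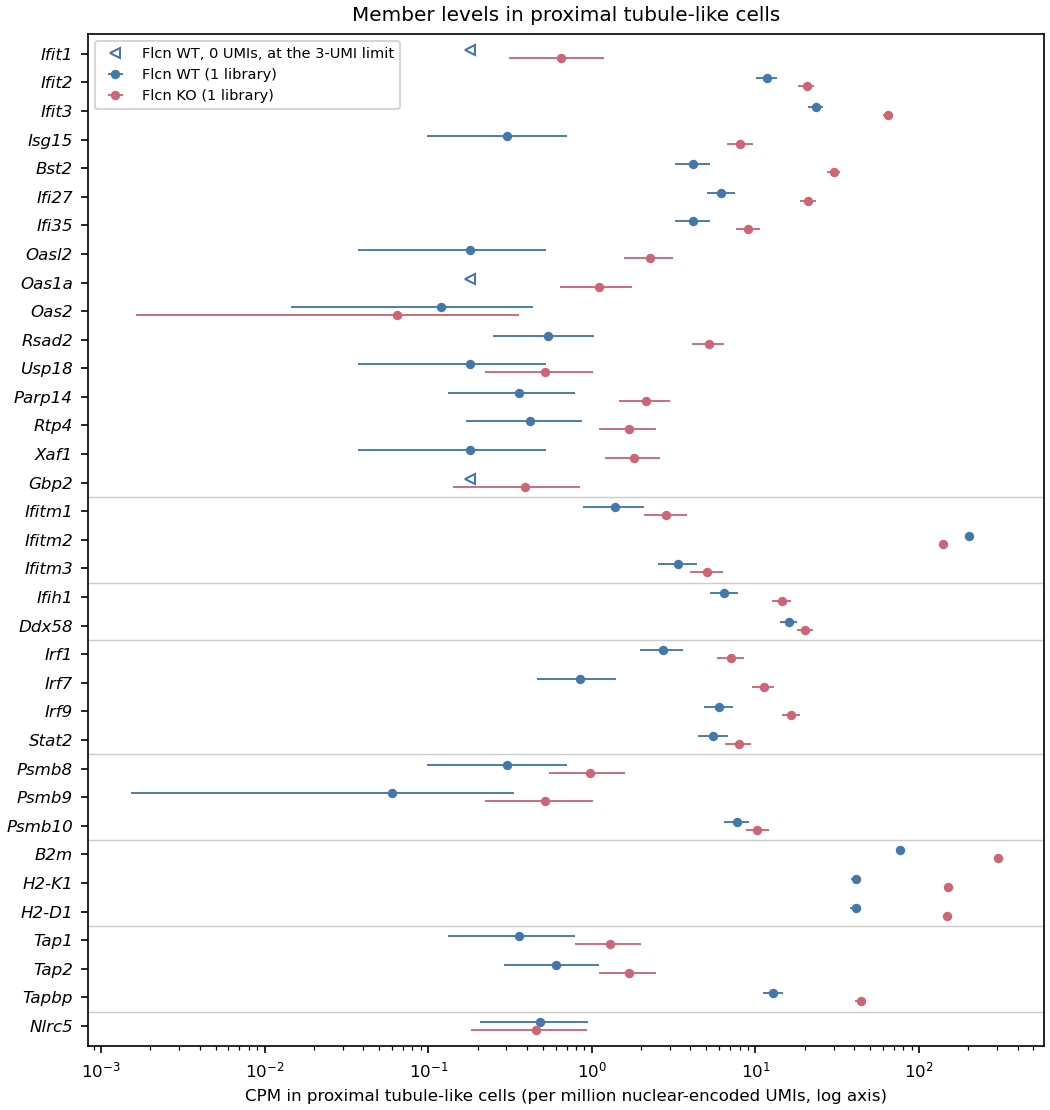
Levels of the 35 members in proximal tubule-like cells, in CPM on a log axis, for the WT library (blue) and the KO library (red), with exact 95% Poisson intervals as bars; open triangles mark 0 UMIs drawn at the limit of 3 UMIs, and grey lines part the roles. B2m stands at 76.4 CPM in WT and 305 in KO, whereas Ifitm2 runs the other way, at 203 and 140.

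Among the antiviral effectors, Isg15, a ubiquitin-like protein attached to other proteins, had 5 UMIs in WT and 125 in KO, or 0.301 and 8.09 CPM. The ratio was 26.9 (11.2 to 84.3). Bst2, or tetherin, which holds budding virus at the cell surface, had 69 and 464 UMIs, a ratio of 7.24 (5.61 to 9.47). In the KO library both genes were above their level in each other nephron class, and in WT only podocyte-like cells had less of either. Rsad2, or viperin, which makes a chain-ending nucleotide, had 9 and 80 UMIs, a ratio of 9.57 (4.80 to 21.7). Oasl2, of the oligoadenylate synthetase family, had 3 and 35 UMIs, a ratio of 12.6 (3.96 to 63.8). Xaf1, a cofactor of cell death, had 3 and 28 UMIs, a ratio of 10.1 (3.10 to 51.7). These genes rest on few WT molecules, and their intervals are wide.

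Of the IFIT genes, whose proteins bind foreign RNA, Ifit2 and Ifit3 were already well counted in WT. Ifit3 had 388 UMIs in WT and 994 in KO, or 23.3 and 64.3 CPM, a ratio of 2.76 (2.45 to 3.11). Ifit2 had 195 and 317 UMIs, a ratio of 1.75. Ifit3 alone gave 388 of the 862 effector UMIs in WT and 994 of the 2606 in KO. The remaining measured effectors were Ifi27 (ratio 3.38), Ifi35 (2.17), Parp14 (5.92) and Rtp4 (3.999), all higher in KO. Among those with few UMIs, Oas1a had 0 in WT and 17 in KO, at least 6.10-fold higher with the WT count set to 3, and Ifit1 had 0 and 10, at least 3.59-fold higher. Gbp2 had 0 and 6 UMIs (at least 2.15-fold higher), Usp18, a brake on ISG15 tagging, had 3 and 8, and Oas2 had 2 and 1. Summed over its 16 genes, the effector group stood at 51.8 CPM in WT and 169 in KO, a ratio of 3.26 (3.01 to 3.52).

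The IFITM genes, whose membrane proteins block the fusion of incoming virus, did not share this direction. Ifitm2 was the most counted antiviral member of the class, with 3375 UMIs in WT and 2156 in KO, or 203 and 140 CPM, a ratio of 0.688 (0.651 to 0.726). Ifitm1 had 23 and 44 UMIs (ratio 2.06) and Ifitm3 56 and 78 (ratio 1.5, 1.05 to 2.15). Summed over the 3 genes the level was 208 CPM in WT and 147 in KO, a ratio of 0.710. With them included, all 25 antiviral genes summed to 296.8 CPM in WT and 393.4 in KO, a ratio of 1.325 (1.276 to 1.376). The IFITM group also has resting roles and is high in mesenchymal cells, as described below. The 3 genes are close relatives, as are Oas1a with its neighbours and Ifit1 and Ifit3 with theirs, so reads of near-identical copies may be split or lost in the deposited counts.

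Of the transcription factors, Irf7, the amplifier of type I interferon genes, had 14 UMIs in WT and 173 in KO, or 0.842 and 11.2 CPM. The ratio was 13.3 (7.72 to 24.9). Irf9, a DNA-binding partner of STAT2, had 99 and 256 UMIs (ratio 2.78), and Irf1, which acts downstream of interferon gamma, had 45 and 109 (ratio 2.61). Stat2 differed less, with 92 and 122 UMIs and a ratio of 1.43. The RNA sensors were also higher in KO, Ifih1 (MDA5) at a ratio of 2.24 and Ddx58 (RIG-I) at 1.26. Summed, the factors stood at 15.03 and 42.7 CPM and the sensors at 22.4 and 34.6 CPM.

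Summed over both libraries, the class I chains held more UMIs than any other group of members. B2m had 1271 UMIs in WT and 4714 in KO, or 76.4 and 305 CPM, a ratio of 3.99 (3.75 to 4.25). H2-K1 had 685 and 2318 UMIs, a ratio of 3.64 (3.34 to 3.97). H2-D1 had 682 and 2282 UMIs, a ratio of 3.60 (3.31 to 3.93). The 3 ratios were thus nearly equal, though H2-K1, H2-D1 and the H2-Q genes resemble each other closely and their separate counts are uncertain. Tapbp, tapasin, which bridges TAP and class I, had 213 and 680 UMIs (ratio 3.44), while the transporter genes Tap1 (6 and 20 UMIs) and Tap2 (10 and 26) had ratios of 3.59 and 2.80. The immunoproteasome subunits were thin. Psmb10 had 128 and 159 UMIs (ratio 1.34), Psmb8 had 5 and 15 (ratio 3.23, 1.12 to 11.4), and Psmb9 had 1 and 8 (ratio 8.61, 1.16 to 382). Nlrc5, the transactivator of class I genes, had 8 UMIs in WT and 7 in KO.

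Among the measured members with a promoter window, the letters did not order these ratios. Ifi27, Parp14, Rtp4 and Tap2 were measured but had no window, and are left out of this split. The 10 measured members with ISRE letters had a median log2 ratio of 1.31, from -0.54 (Ifitm2) to 4.62 (Isg15), and 6 of them were at least 1.5-fold higher in KO. The 14 measured members without the letters had a median of 1.68, from 0.42 to 3.69 (Irf7), and 13 were at least 1.5-fold higher. Irf7 and Ifitm2, shown above, are the clearest contrast, since Irf7 lacks the letters and had the highest ratio of the measured members after Isg15, whereas Ifitm2 holds them and was lower in KO.

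The higher levels were seen in the share of cells as well as in the sum. With each cell thinned to 3000 UMIs, B2m was detected in 17.7% of WT (13.9 to 21.95) and 44.2% of KO proximal tubule-like cells (38.5 to 50.1), and without thinning in 81.9% and 95.3%. H2-K1 was detected in 11.1% and 34.0% after thinning, and Bst2 in 1.09% and 8.16%. Isg15 was in 0 of 368 thinned WT cells, which allows a share of up to 0.815%, and in 2.38% of KO cells (1.08% and 15.2% without thinning). For scale, in nephron progenitor-like cells, where these genes were low, the thinned shares were 7.09% and 11.02% for B2m, 1.54% and 2.203% for H2-K1, 3.24% and 2.54% for Bst2 and 0.308% and 0.339% for Isg15, at median depths of 24086.5 and 21402 UMIs. The WT Bst2 share of the proximal tubule was thus under the progenitor shares and the KO share above them. After thinning, cells with at least 2 UMIs of the antiviral genes without IFITM were 2.99% of WT and 15.3% of KO proximal tubule-like cells, and for the antigen presentation genes without B2m 5.71% and 25.9%. The tenth of cells with the most antiviral UMIs, IFITM left out, held 58.2% of them in WT and 47.9% in KO. With 79.6% of WT and 57.8% of KO cells at 0, these shares depend on the number of UMIs. They thus do not compare how evenly the UMIs were spread.

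The proximal tubule-like class fell into 5 finer clusters, found with the 35 members and the related pathway genes left out of the clustering. Cluster 21 (92 WT and 6 KO cells) was led by Miox and Acmsd, cluster 27 (117 and 39) by Serpina6, Kap and Slc7a13, cluster 34 (90 and 57) by Gm10283, Hdc and Nat8f1, and cluster 35 (70 and 49) by Slc5a12 and Spp2. Cluster 41 held 1 WT and 145 KO cells and was led by Havcr1, Kcnip4, Sprr1a, Ptgds and Krt20. Havcr1, or Kim1, and Krt20 are known tubule injury genes. A cluster almost wholly of 1 library may be that library rather than a cell state, and here it was 99.3% KO.

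Within the clusters present in both libraries, the difference depended on the cluster. In cluster 35, 9 of 12 measured antiviral genes and 5 of 5 antigen presentation genes were at least 1.5-fold higher in KO, against 12.3% of all genes. In cluster 34 these were 4 of 10 and 2 of 5 (7.73% of all genes), and in cluster 27 they were 4 of 12 and 0 of 5 (10.2%). The class I chains stood at 184 CPM in WT and 603 in KO in cluster 35 (ratio 3.27), at 155 and 236 in cluster 34 (1.53), and at 124 and 138 in cluster 27 (1.11). They reached 854 CPM in the KO cells of cluster 41 and 182 in the WT cells of cluster 21. The effector group was at 15.3 and 92.4 CPM in cluster 35, at 31.1 and 48.5 in cluster 34, at 115 and 142 in cluster 27, and at 243 in the KO cells of cluster 41. The gradient among the KO clusters ran from 27 through 34 and 35 to 41 for the chains, while the WT clusters lay between 124 and 184 CPM. Whether the clusters differ in this was not tested, with 1 library each.

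**Figure D2:**
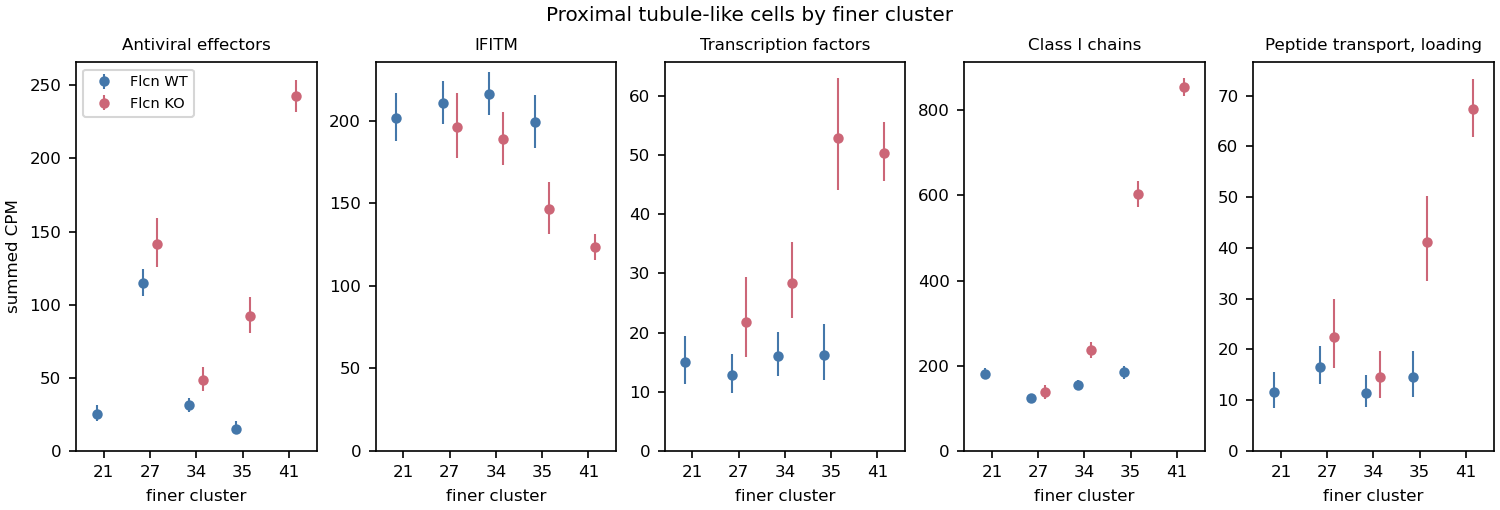
Summed CPM of 5 groups of members in the finer clusters of proximal tubule-like cells, WT in blue and KO in red, with exact 95% Poisson intervals and with a point only where a library had at least 30 cells. The class I chains run from 138 CPM in KO cluster 27 to 854 in cluster 41, and the IFITM genes are lowest in KO clusters 35 and 41, at 147 and 123.

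Single genes followed different paths through these clusters. In the KO library cluster 41 held 116 of the 125 Isg15 UMIs (14.4 CPM). Without that cluster it had 5 UMIs in WT and 9 in KO, a ratio of 4.02 (1.21 to 15.3). Irf7, in contrast, was also high in KO cluster 35, with 1 UMI in WT and 31 in KO (0.332 and 13.0 CPM), close to the 15.8 CPM of cluster 41. Without cluster 41 its ratio was 7.34 (3.96 to 14.5). Bst2 was at 2.99 CPM in WT and 35.3 in KO in cluster 35 (ratio 11.8, 5.93 to 26.7) and at 40.8 in cluster 41, with a ratio of 4.40 without the latter. B2m was higher in KO in each cluster that both libraries filled, at 48.6 and 70.5 CPM in cluster 27, 65.7 and 108 in cluster 34, and 109 and 333 in cluster 35, and its ratio without cluster 41 was 2.29.

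Other members differed little without cluster 41. Ifit3 was high in cluster 27 of both libraries, at 73.3 CPM in WT and 77.5 in KO, and at 101 in cluster 41, but near 0 in cluster 35 (0 and 1 UMI). Its ratio without cluster 41 was 1.04 (0.863 to 1.24). Ddx58 and Psmb10 then had ratios of 0.888 and 0.827, and all 20 KO UMIs of Tap1 lay in cluster 41. Without cluster 41, leaving 369 WT and 151 KO cells, 10 of 15 measured antiviral genes and 4 of 5 antigen presentation genes were at least 1.5-fold higher (10.8% of all genes), with medians of 0.83 and 0.94. The summed effectors then stood at 51.9 and 88.4 CPM (ratio 1.70) and the class I chains at 157 and 330 (ratio 2.10). Without both clusters held by 1 library (277 WT and 145 KO cells), 8 of 14 and 4 of 5 were higher (8.69% of all genes), and the medians were 0.74 and 0.95. The whole antiviral list, IFITM included, had summed ratios of 1.079 without cluster 41 and 1.052 (0.9988 to 1.107) without both clusters.

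**Figure D3:**
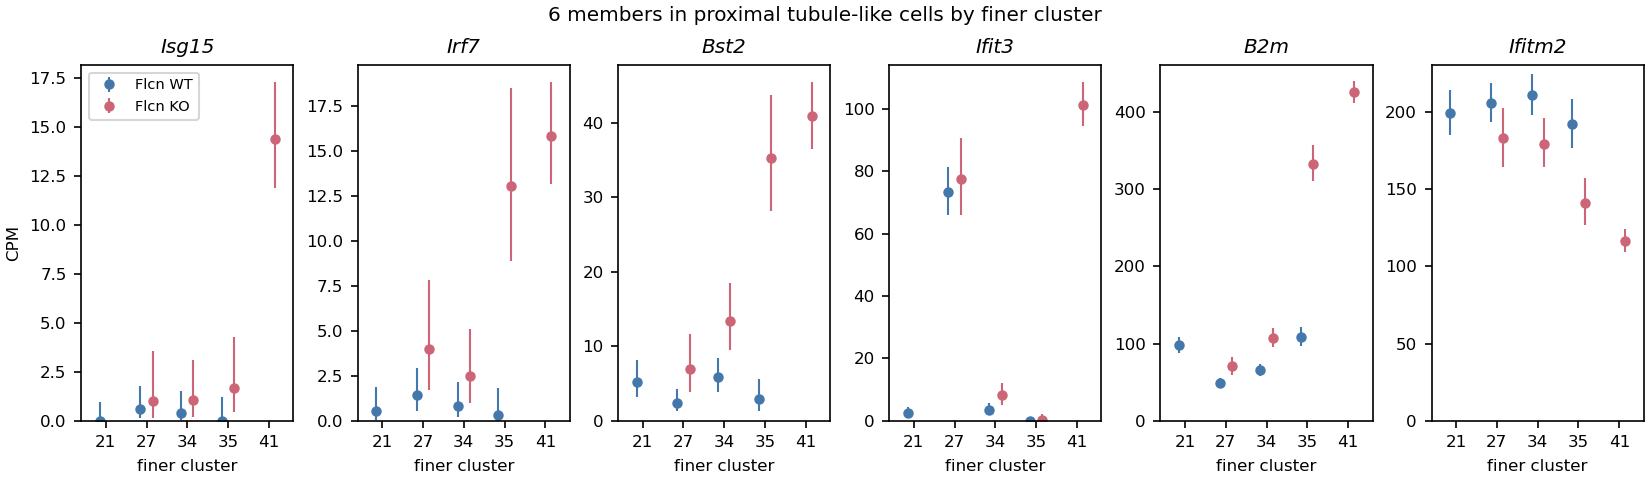
Levels of Isg15, Irf7, Bst2, Ifit3, B2m and Ifitm2 in the finer clusters of proximal tubule-like cells, in CPM with exact 95% Poisson intervals, WT in blue and KO in red, each panel on its own scale. Isg15 is high in KO cluster 41 alone, Irf7 and Bst2 also in KO cluster 35, and Ifit3 in cluster 27 of both libraries.

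Markers of injury and of other cell types were measured in the same cells. The summed tubule injury list of 10 genes was at 2026 CPM in WT and 3006 in KO proximal tubule-like cells, with 10 of 10 genes higher. Without cluster 41 it was at 2008 and 2002 CPM, although 9 of 10 genes were still higher in KO. In cluster 35, where the members differed most, it was at 3352 and 2973, with 6 of 10 genes higher in KO. Havcr1 was at 9.30 and 7.98 CPM in cluster 35 and at 263 in cluster 41. The macrophage list of 11 genes was at 70.0 CPM in WT and 60.3 in KO, although 9 of 11 genes were higher in KO. Most of its UMIs were Csf1r, with 1059 of 1157 in WT and 311 of 372 in KO without cluster 41. The lower sum in KO thus follows Csf1r, while 8 of 11 genes were higher in KO without that cluster. In the 145 KO cells of cluster 41 the macrophage list was at 69.5 CPM, against 50.2 in the remaining KO proximal cells, with 10 of 11 genes detected. Of its 559 UMIs there 484 were Csf1r, 29 Cx3cr1 and 19 Fcer1g, while Ptprc had 8 and C1qa, C1qb and C1qc had 2, 3 and 3, Laptm5 had 0, and the 6 lymphocyte markers had 0. The part of these UMIs in the levels of cluster 41 was not tested. The neutrophil list was at 1.20 and 3.17 CPM, the endothelial list at 19.96 and 22.1, and the erythroid list at 27.7 and 42.7. In the 82 WT and 59 KO cells with no UMI of a macrophage or neutrophil marker, 5 of 10 measured antiviral genes and 4 of 5 antigen presentation genes were at least 1.5-fold higher, against 13.9% of all genes higher and 9.56% lower. The summed ratios there were 1.74 for the antiviral genes without IFITM and 2.77 for antigen presentation. Because most marker UMIs were Csf1r, this choice mainly left out cells holding Csf1r. The part of immune RNA in the ratios was thus not tested by it. The part of the remaining lists in the ratios was not tested.

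Upstream and neighbouring genes of the pathway were taken from a list of 82 genes, of which 57 had at least 20 UMIs in proximal tubule-like cells. Of these, 26 were at least 1.5-fold higher in KO and 0 lower, against 14.6% and 13.2% of all genes. No interferon gene was among them: over all classes, 6 of the 10 listed interferon genes had 0 UMIs in both libraries, Ifnb1, Ifng and Ifne had at most 1 per library, and Ifnk had 11 in WT and 17 in KO, with 0 and 2 in the proximal tubule. The type I receptor chains differed little, with Ifnar1 at 28.01 and 30.03 CPM (ratio 1.07) and Ifnar2 at a ratio of 0.862. The interferon gamma receptor chain Ifngr2 was at 15.5 and 53.2 CPM (ratio 3.44), Ifngr1 at a ratio of 1.89, and Ifnlr1, of the lambda receptor, at 3.15. Stat3 had a ratio of 1.66. The 26 higher genes were spread unevenly over the groups of the list. Class I relatives and loading had 1 of 8 measured genes higher, nucleic acid sensing 2 of 8 and the proteasome 0 of 5. Receptors and kinases had 4 of 9, transcription factors and brakes 3 of 8, class II 5 of 6 and the remaining group 11 of 13. The constitutive proteasome subunits Psmb5, Psmb6 and Psmb7, which Psmb8, Psmb9 and Psmb10 replace, had ratios of 1.08, 0.949 and 0.9496.

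Class II genes, normally kept for professional antigen-presenting cells, were higher too. Cd74, the invariant chain, had 167 UMIs in WT and 2355 in KO, a ratio of 15.2 (13.0 to 17.9). H2-Aa had 75 and 788, a ratio of 11.3 (8.92 to 14.5). Their master regulator Ciita, named here after its values were seen, had 46 and 43 UMIs, a ratio of 1.01. Cd74 was at 9.30 and 117 CPM in cluster 35 and at 245 in cluster 41, of which it is a leading gene. Of the 13 measured genes in the list's remaining group, which mixes interferon and NF-kB targets, 11 were at least 1.5-fold higher (14.6% of all genes), among them the NF-kB genes Relb (4.11), Nfkb2 (3.49) and Tnfaip3 (3.66), the chemokine Cxcl10 (3.38), Lgals3bp (11.8) and the antiviral zinc-finger gene Zc3hav1 (8.03). Cgas had 12 and 13 UMIs and Sting1 1 and 7, so the DNA-sensing arm was hardly counted.

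Loop of Henle-like cells (152 WT, 203 KO), the segment named in the study's title, had an antiviral count above the share over all genes and an antigen presentation count near it. The difference from the proximal tubule was not tested. At the finer resolution a loop of Henle-like cluster led by Umod and Ptger3 held 0 WT and 162 KO cells. The other, led by Pappa2 and Slc12a1, held 141 WT and 39 KO cells. The loop ratios thus set mostly different finer clusters against each other, and the part of this in them was not tested. Of 16 measured antiviral genes 4 were at least 1.5-fold higher in KO and 1 lower, and of 9 antigen presentation genes 1 was higher and 2 lower, against 11.4% of all genes higher and 16.7% lower. The medians were 0.25 and 0.05, against -0.04 over all genes. B2m was the antigen presentation gene that stood out, with 185 UMIs in WT and 495 in KO, or 22.98 and 43.5 CPM (ratio 1.89, 1.60 to 2.25), while its partners H2-K1 (48.8 and 51.3 CPM) and H2-D1 (48.4 and 45.6 CPM) differed little. Ifit3 had 72 and 160 UMIs (ratio 1.57), and Rsad2, Ifitm1 and Irf7 had 21, 25 and 18 UMIs in KO and ratios of 1.86, 1.61 and 2.12 whose intervals included 1. Psmb8 was lower, with 35 and 23 UMIs (ratio 0.465, 0.262 to 0.810). Isg15 had 12 UMIs in WT and 2 in KO, a ratio of 0.118 (0.0128 to 0.530), under the minimum of 20. The summed antiviral genes without IFITM stood at 112 and 119 CPM. Class II genes were nonetheless higher here as well, 5 of 5 measured. Cd74 had 20 and 162 UMIs and H2-Aa 1 and 26, far below their proximal levels in the same library.

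**Figure D4:**
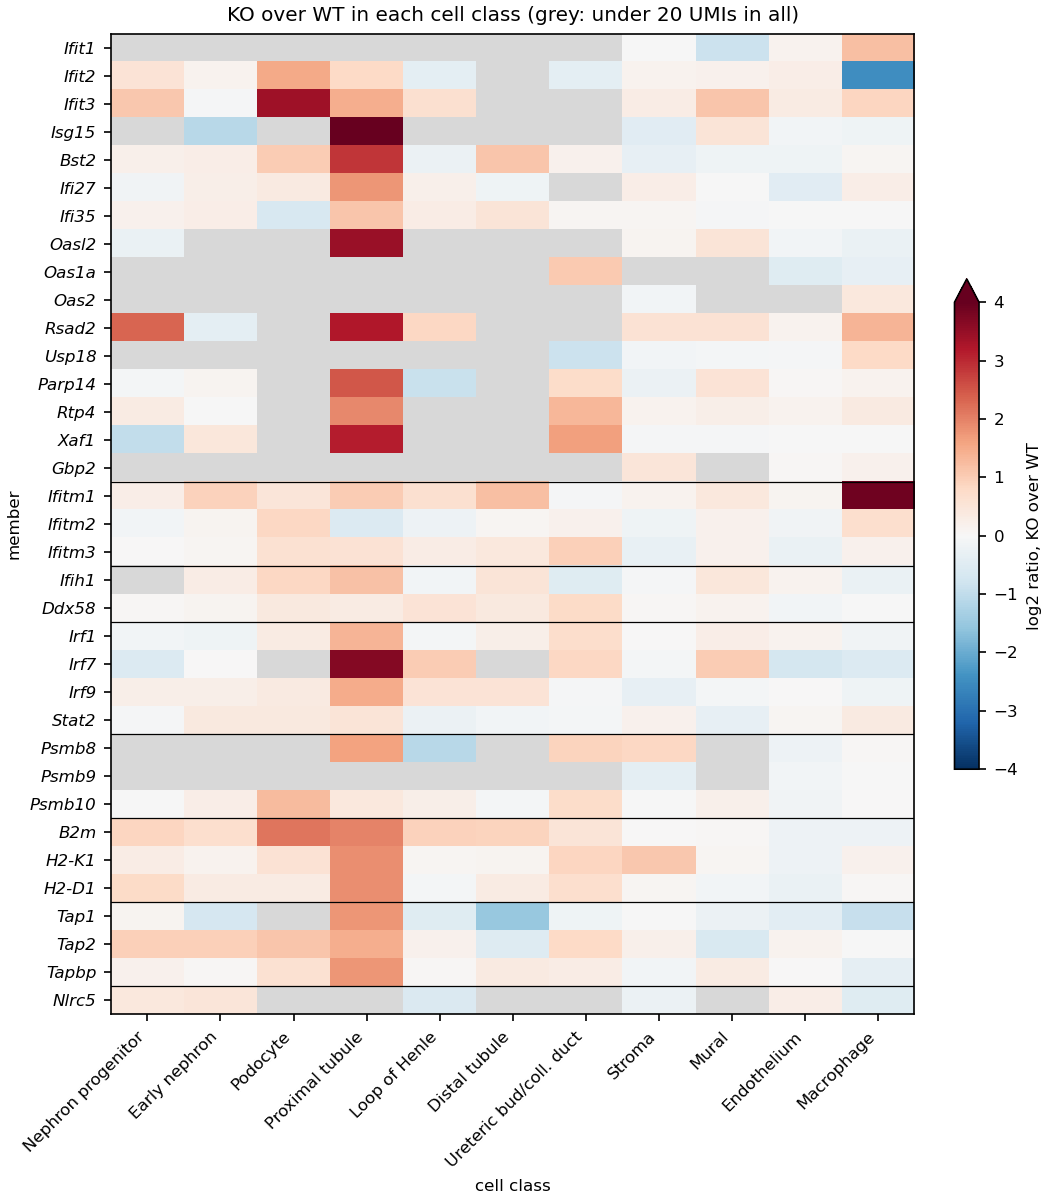
Log2 ratio of KO over WT for each member (vertical, grouped by role between black lines) in each cell class (horizontal), red where KO is higher and blue where it is lower, with grey where both libraries together had under 20 UMIs and colours capped at 4. The proximal tubule column is red for nearly every measured member except Ifitm2, the podocyte column is red for B2m and Ifit3, and the stroma and endothelium columns are pale.

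Along the rest of the nephron, B2m was the member most often higher in KO. It was at 20.4 CPM in WT and 37.2 in KO in nephron progenitor-like cells (ratio 1.82), 16.4 and 26.4 in early nephron-like cells (1.61), 15.5 and 68.5 in podocyte-like cells (4.42, 3.42 to 5.76) and 23.03 and 42.9 in distal tubule-like cells (1.86). Outside it, B2m had a ratio of 1.44 in ureteric bud and collecting duct-like cells, 0.9999 in stroma, 1.04 in mural cells, 0.865 in endothelium and 0.869 in macrophages. It was thus above 1 in each of the 6 nephron classes and in the ureteric class, and within 1.2-fold of 1 in the other 4. H2-K1 and H2-D1 did not follow it in podocyte-like cells (ratios 1.49 and 1.25) or in progenitors for H2-K1 (1.24). Summed without B2m, the antigen presentation genes had ratios of 1.13 in progenitors, 1.15 in early nephron-like cells, 1.58 in podocyte-like cells and 1.07 in distal tubule-like cells.

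Podocyte-like cells (193 WT, 118 KO) came nearest to the proximal tubule in the summed antigen presentation genes, at 79.0 and 169 CPM (ratio 2.13). Of 13 measured antiviral genes 6 were at least 1.5-fold higher and 1 lower, and of 6 antigen presentation genes 4 were higher, against 11.1% and 8.69% of all genes. Ifit3 had 3 and 22 UMIs (ratio 12.1, 3.62 to 62.9), Ifit2 18 and 32 (2.92), Bst2 17 and 21 (2.03) and Psmb10 29 and 43 (2.44). Here the IFITM genes shared the direction, at 172 and 293 CPM (ratio 1.71). Flcn was also higher in KO in this class (20.9 and 36.2 CPM). The macrophage list was at 35.1 and 37.8 CPM and the injury list at 39.0 and 29.5 CPM.

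In nephron progenitor-like cells (650 WT, 592 KO), 2 of 18 measured antiviral genes were at least 1.5-fold higher and 1 lower, and 3 of 8 antigen presentation genes were higher, against 6.65% and 7.71% of all genes. Rsad2 had 10 and 42 UMIs (ratio 5.25, 2.59 to 11.7) and Xaf1 60 and 24 (0.4998, 0.298 to 0.815), so single antiviral genes differed in opposite directions. In early nephron-like cells 1 of 19 antiviral genes was higher and 1 lower, and 2 of 8 antigen presentation genes higher and 1 lower (6.23% and 6.73% of all genes). Ifit3 was at its WT maximum over the classes in these cells, at 54.5 CPM and 52.4 in KO. In distal tubule-like cells, with 101 WT and 63 KO cells, 2 of 11 antiviral genes were higher, and of 7 antigen presentation genes 1 was higher and 1 lower (12.7% and 10.8%). The neutrophil list was at 1.27 CPM in WT and 244 in KO in the distal class. In the progenitor class it was at 1.84 and 28.9 CPM, with 6 of 6 genes higher in KO. Its part in the ratios of either class was not tested.

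The ureteric bud and collecting duct-like cells (185 WT, 83 KO), which do not descend from Six2-positive cells, also held more of both lists in KO. Of 17 measured antiviral genes 8 were at least 1.5-fold higher and 1 lower, and of 8 antigen presentation genes 5 were higher, against 6.22% and 5.84% of all genes. H2-K1 was at 26.1 and 47.3 CPM (ratio 1.81) and H2-D1 at 36.9 and 58.4 (1.58). Ifitm3 was at 46.9 and 91.2 CPM (ratio 1.94, 1.68 to 2.25), Ddx58 at 31.3 and 53.2 (1.70) and Rtp4 at 2.99 and 7.49 (2.51), while Bst2, Irf9 and Ifi35 had ratios of 1.12, 0.966 and 1.04. The summed antiviral genes without IFITM stood at 156 and 206 CPM (ratio 1.32) and the antigen presentation genes at 176 and 265 CPM (1.51). After thinning, cells with at least 2 antiviral UMIs, IFITM left out, were 7.18% of WT and 18.8% of KO. With the members and pathway genes left in the clustering, which redraws this class, 2 antiviral and 0 antigen presentation genes were at least 1.5-fold higher. The share over all genes was not taken under that clustering. The summed ratios were then 1.06 for the antiviral genes without IFITM and 1.15 for antigen presentation. The macrophage list was at 66.6 and 68.2 CPM and the injury list at 2001 and 2430.

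Endothelium-like cells (296 WT, 460 KO) had the highest summed effectors of the 11 classes in both libraries, 2088 CPM in WT and 2078 in KO. None of 24 measured antiviral genes was at least 1.5-fold higher and 1 was lower, and none of 10 antigen presentation genes was higher, against 6.08% and 4.83% of all genes. Rsad2 stood at 764 and 848 CPM, Bst2 at 727 and 647, and Isg15 at 134 and 125, so the proximal KO levels of Bst2 (30.03 CPM) and Isg15 (8.09) remained far below those of resting endothelium. The lower gene was Irf7, at 35.4 and 21.7 CPM (ratio 0.614, 0.531 to 0.709). After thinning, 96.3% of WT and 94.5% of KO endothelial cells had at least 2 antiviral UMIs, IFITM left out.

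Macrophage-like cells (54 WT, 125 KO) had the highest class I chains, 3827 CPM in WT and 3647 in KO. Of 25 antiviral genes 6 were at least 1.5-fold higher and 1 lower, and of 10 antigen presentation genes 0 were higher and 1 lower, against 9.04% and 13.0% of all genes. Ifitm1 had 8 UMIs in WT and 315 in KO (ratio 15.9, 7.96 to 37.1), and Ifit2 had 46 and 20 (0.175, 0.0983 to 0.302). The neutrophil list in this class was at 869 CPM in WT and 3236 in KO, and Ifitm1 in the neutrophil-like cells was at 286 and 629 CPM. The part of neutrophil RNA in the Ifitm1 ratio was not tested. Tap1 had 47 and 61 UMIs, or 72.1 and 37.7 CPM (ratio 0.523).

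Stroma-like cells (1141 WT, 2007 KO), had 0 of 24 measured antiviral genes at least 1.5-fold higher or lower, against 7.44% and 5.29% of all genes. Of 10 antigen presentation genes 2 were higher, H2-K1 (26 and 96 UMIs, ratio 2.14) and Psmb8 (26 and 80, ratio 1.79), both barely counted next to B2m (2083 and 3588 UMIs, ratio 0.9999). The endothelial list was at 115 CPM in WT stroma and 214 in KO, and its part in those genes was not tested. The IFITM genes were high in stroma, at 1384 and 1262 CPM, several times their level in the nephron classes. Mural cells (119 WT, 234 KO) had 2 of 22 antiviral genes higher and 1 lower, and 0 of 7 antigen presentation genes higher and 1 lower (7.84% and 7.49%).

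**Figure D5:**
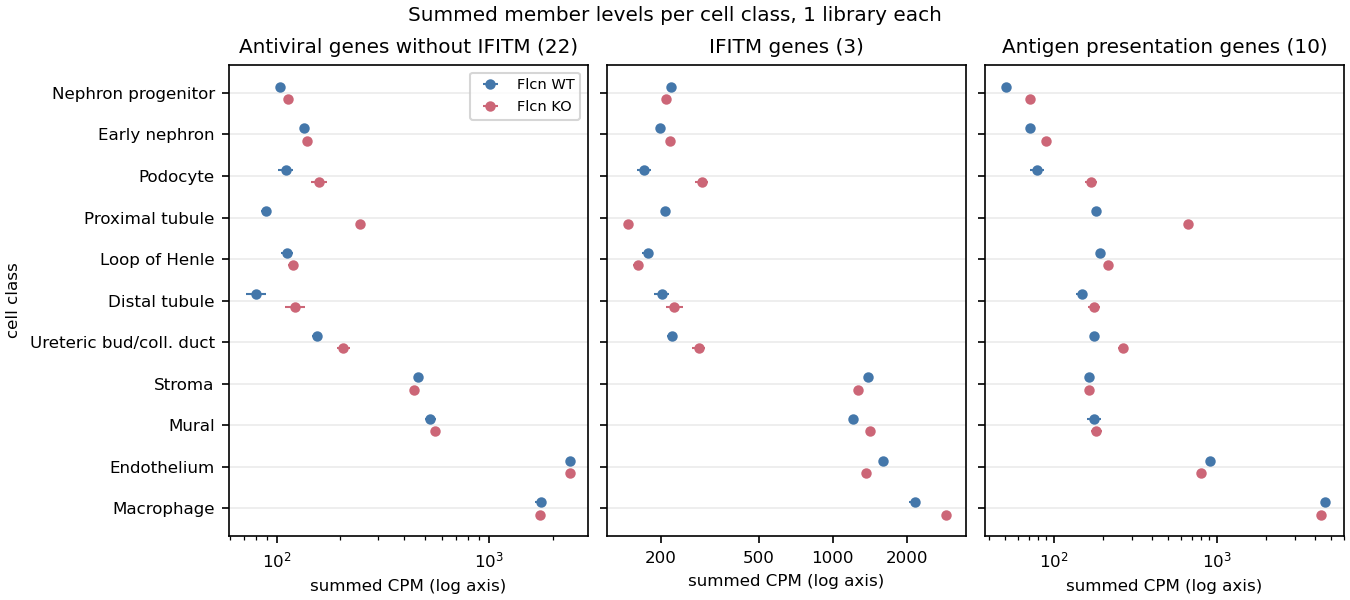
Summed CPM of the 22 antiviral genes without IFITM, the 3 IFITM genes and the 10 antigen presentation genes in 11 cell classes, on log axes, WT in blue and KO in red, with exact 95% Poisson intervals. The libraries lie apart in proximal tubule-like cells (89.2 and 246, 208 and 147, 181 and 662 CPM) and nearly coincide in stroma, mural cells and endothelium for the antiviral genes without IFITM and the antigen presentation genes.

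The place of the proximal tubule among the classes differed between the libraries. Summed class I chains placed proximal tubule-like cells behind macrophages and endothelium among 11 classes in WT, at 159 CPM, and behind macrophages alone in KO, at 603 CPM (591 to 615), next to endothelium at 593 (582 to 605), intervals that overlap. They were the ninth in WT and the fifth in KO for the effectors, the eleventh and the seventh for the transcription factors, and the ninth and the fourth for peptide transport and loading. They were the seventh in WT and the last in KO for IFITM, and the tenth and the last for the immunoproteasome. For Ifit3 they were the second in WT (23.3 CPM) and the first in KO (64.3), exchanging places with early nephron-like cells. Neutrophil-like cells (21 WT, 71 KO) and intercalated-like cells (42 and 14) were too few for a comparison of lists.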

How the data were processed

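Both libraries were made with a 10x Genomics 3′ version 2 kit, per the labels' protocols. The submitters' processing notes name bcl2fastq 2.20.0, Cell Ranger, STAR 2.7.2a and the builds GRCm38 and mm10, and per the file headers the WT matrix was written by Cell Ranger 7.0.0 and the KO matrix by 7.1.0; the effect of this version difference was not tested. The deposited values are raw UMI counts per gene and barcode, made by the authors, with no barcode under 500 UMIs; whether intronic reads or strand entered the counts is not given in the sources used here.

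From these counts, barcodes with at least 1000 UMIs, 500 genes and at most 20% mitochondrial UMIs were kept (4187 WT and 5040 KO). Scrublet's own threshold marked 52 and 61, so the highest-scoring barcodes at the expected share of 0.8% per 1000 barcodes were removed instead (187 and 242). Cells were clustered with Scanpy 1.11.5 (2000 variable genes without the members and pathway genes, 40 components, 20 neighbours, Leiden resolution 1, and 2 for the finer clusters, seed 1). A cluster was named where its best marker list scored at least 0.35 and the next list at most 0.7 of it, limits set after seeing the data. UMIs were summed per class and library and divided by nuclear-encoded UMIs. Poisson, conditional ratio and Clopper-Pearson intervals are exact, at 95%, from SciPy 1.17.1, and a count of 0 was given a limit of 3 UMIs. With 1 library per group there was no test; a member counted as different past 1.5-fold, with 0.5 UMI added to each sum, if both libraries together had 20 UMIs. The ratio step was checked on simulated data.

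The members and gene lists were chosen with earlier results of these data known. Any member could be named in any class, with priority to those with at least 20 UMIs, a fixed set of pathway genes always, and other pathway genes if at least 1.5-fold different with at least 50 UMIs. Alternatives covered the filters, doublet removal, clustering, depth, added values, UMI minimum and scaling (edgeR 4.0.16 and DESeq2 1.42.0 scaling factors only). Promoter windows came from the RefSeq table on GRCm38.p6.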

Additional observations from a re-analysis of the deposited data

Results flagged for a closer look

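For the 5 members listed here a class where the KO library was lower, with an interval wholly under 1, stood against a class where it was higher, with an interval wholly above 1. Each of their ratios was at least 1.5-fold from 1 and rested on at least 20 UMIs over both libraries. Members with smaller differences or fewer UMIs, such as Isg15 in the loop of Henle, are not listed. The difference between the classes was itself not tested, since each rests on 1 library per group. Ifit2 had a KO over WT ratio of 0.175 (0.0983 to 0.302) in macrophage-like cells and 2.92 (1.59 to 5.53) in podocyte-like cells. Xaf1 had a ratio of 0.4998 (0.298 to 0.815) in nephron progenitor-like cells and 10.1 (3.10 to 51.7) in proximal tubule-like cells. Irf7, the largest proximal ratio after Isg15 among the measured members, was at 13.3 there (7.72 to 24.9) and at 0.614 (0.531 to 0.709) in endothelium-like cells. Psmb8 had a ratio of 0.465 (0.262 to 0.810) in loop of Henle-like cells and 3.23 (1.12 to 11.4) in the proximal tubule. Tap1, at 3.59 (1.39 to 10.9) in the proximal tubule, had ratios of 0.319 (0.0786 to 0.969) in distal tubule-like cells and 0.523 (0.352 to 0.783) in macrophage-like cells. Xaf1, Psmb8 and Tap1 had at most 6 WT UMIs in the proximal tubule.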

How the results depend on the processing

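No paired analysis was possible because each group has 1 library and the labels give no replicate numbers; for the same reason no replicate could be left out. Of the list medians under all alternatives 336 stayed within their spread over genes and 13 did not, and of the proximal and loop of Henle counts 55 stayed within 1.5 times and 13 did not. That spread is wide for short lists, such as -1.517 to 0.895 for antigen presentation in distal cells. Staying within it is therefore a weak mark of stability. The cells without a macrophage or neutrophil marker UMI, the proximal class without cluster 41 and a laxer naming of clusters were chosen after seeing the data. The proximal summed ratios ran from 1.49 to 2.86 for the antiviral genes without IFITM, 0.67 to 0.843 for IFITM and 2.02 to 3.86 for antigen presentation, so no alternative turned a proximal direction.

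In the proximal tubule, leaving out both clusters held by 1 library gave an antiviral median of 0.735 and counts of 8 antiviral and 4 antigen presentation genes (8.69% of all genes). The summed ratios were 1.49 (antiviral without IFITM), 0.843 (IFITM) and 2.1 (antigen presentation). Leaving out only cluster 41 gave 0.827, 10 and 4 genes (10.8% of all genes), and ratios of 1.65, 0.835 and 2.02 in the same order. Cells without a macrophage or neutrophil marker UMI, a choice made mainly by Csf1r, gave 0.633 and 5 and 4 genes (13.9% of all genes). Their summed ratios were 1.74 (antiviral without IFITM) and 2.77 (antigen presentation). A minimum of 100 UMIs gave 10 and 4 genes, because fewer genes are counted. The summed ratio of the antiviral genes without IFITM was 2.29 at resolution 0.5, 2.59 at resolution 2, 2.37 at a 10% mitochondrial limit and 2.55 without doublet removal. IFITM was 0.763, 0.799 and 0.67 at resolution 0.5, the 10% limit and without doublet removal. Antigen presentation was 3.27 at resolution 0.5, 3.34 after thinning, 3.45 as a mean over cells and 3.86 with the members left in the clustering. In the loop of Henle, 1 antiviral gene stayed past 1.5-fold with 1 CPM added or at 100 UMIs, and 2 antigen presentation genes did as a mean over cells, without doublet removal and in cells without a macrophage or neutrophil marker UMI. Where no share over all genes stands beside a count, it was not taken for that setting.

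Other medians differed as follows. Thinning gave -0.305 for antigen presentation in endothelium and -0.193 and -0.13 for antiviral genes in progenitors and stroma. The 10% limit gave 0.069 for antigen presentation in macrophages. No doublet removal gave 0.24 for antigen presentation in the loop of Henle and 1.078 for antiviral genes in podocytes, where a mean over cells gave 0.274. Cells without a macrophage or neutrophil marker UMI gave 0.313 for antigen presentation in the loop of Henle, and for antiviral genes -0.436 in the distal and 0.285 in the early nephron class. Summed ratios crossed 1 for IFITM in distal cells (0.865 thinned, 0.849 as a mean over cells, 0.775 without a macrophage or neutrophil marker UMI) and early nephron cells (0.966 at 2000 UMIs and 1000 genes), for antigen presentation in distal cells (0.87 thinned) and macrophages (1.0 at 2000 UMIs, 1.04 at the 10% limit), and for antiviral genes without IFITM in progenitors (0.974 thinned), early nephron cells (0.894 at 2000 UMIs and 1000 genes) and the loop of Henle (0.987 thinned, 0.864 without doublet removal). Those that lay within 1.02-fold of 1 also crossed it, the antiviral ratio without IFITM up to 1.06 in endothelium and 1.09 in macrophages and antigen presentation down to 0.992 in stroma. Counts in the other classes were looser, from 1 to 12 antiviral genes in podocytes, 2 to 14 in the ureteric class and 0 to 8 in the distal class. The share over all genes was not taken under these alternatives. Apart from the constructions named, the cause was not tested. Some alternatives gave no value in classes left with too few cells or genes. Beside the single library per group, low counts limit the precision: 7 of 35 were under 20 UMIs in the proximal tubule, and cells thinned to 3000 UMIs rarely keep a molecule of them.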
